A study of Homo sapiens with 61 samples.

Results

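The genes described here are 6 basic leucine zipper (bZIP) transcription factors: ATF3, JDP2 and BATF3, which pair with members of the JUN family, and the small MAF factors MAFF, MAFK and MAFG. They were listed by symbol and matched to the gene identifiers of both count tables through GENCODE 29, giving 6 of 58440 identifiers. RNA was sequenced from 61 libraries of human neurons made from WTC11, an established induced pluripotent stem cell line, by expressing the neurogenic factor NGN2. In experiment 1 every cell carried a doxycycline-controlled NGN2 cassette. Its 4 lines were wild type (WT), 2 single knockouts (DLK KO and LZK KO) and a double knockout of these kinases (DLK LZK double KO). DLK (gene MAP3K12) and LZK (gene MAP3K13) are stress kinases of neurons that act upstream of JNK. Each line gave 4 untreated and 4 vincristine libraries. In experiment 2 every cell carried CRISPR interference machinery, which represses the gene a guide RNA (gRNA) names, and a lentivirus that encoded a scrambled Control gRNA, ATF2 gRNA or JUN gRNA. Each of these gave 5 libraries per treatment, except ATF2 gRNA with vincristine, which had 4 (numbered 2 to 5). Vincristine, a drug that destabilises microtubules, was given at 5 nM on day 14 for 16 hours, and "untreated" cells received the DMSO vehicle for the same time. How many clones stand behind each knockout line was not given in the sources used here, so a line and its genotype cannot be told apart.

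As background, bZIP factors bind DNA only as pairs held together by their leucine zippers, so the members present in a cell set which pairs form. ATF3 is a stress-induced factor that pairs with JUN proteins, and it is widely used as a marker of injured neurons. JDP2 and BATF3 are small JUN partners without a transactivation domain, and the small MAF proteins lack one too and act through partners such as the CNC factors (NFE2L2 among them) and the BACH repressors. Axon injury and microtubule damage activate DLK and LZK, and JNK downstream of them phosphorylates both JUN and ATF2.

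On GRCh38 with GENCODE 29, ATF3 (ENSG00000162772.16) lies on chromosome 1 from 212565334 to 212620777 on the plus strand, and BATF3 (ENSG00000123685.8) lies on the same chromosome from 212686418 to 212699985 on the minus strand. JDP2 (ENSG00000140044.12) spans 75427716 to 75474111 of chromosome 14 (plus), with FOS among the genes within 250 kb of its start. MAFF (ENSG00000185022.11) spans 38200767 to 38216511 of chromosome 22 (plus). MAFK (ENSG00000198517.9) spans 1530714 to 1543043 of chromosome 7 (plus), and MAFG (ENSG00000197063.10) spans 81918270 to 81927714 of chromosome 17 (minus). RefSeq promoters (GRCh38.p14, 250 bases before to 50 after a start) were at hand for 4 of the 6 genes, as 8 promoters. They were searched on both strands for the cyclic AMP response element TGACGTCA that ATF2 pairs bind, its variant TGACGTAA, the AP-1 site TGACTCA, the ATF4 and C/EBP forms TGATGCAA and TGATGAAA, and TGCTGA, a core of the element that MAF pairs bind. The windows below are shown because MAFF and JDP2 were the members with lower untreated RNA under ATF2 gRNA. They come from 1 of the 2 MAFF promoters and 1 of the 3 JDP2 promoters. Picked by that outcome, they cannot test a link to ATF2. Capitals mark the match.
MAFF promoter, chr22:38201929-38201958, plus strand: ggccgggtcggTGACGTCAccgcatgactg
JDP2 promoter, chr14:75427995-75428024, plus strand: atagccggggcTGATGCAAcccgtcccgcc
JDP2 promoter, chr14:75427914-75427943, plus strand: ccgtccccctcTGACGTCtggagctggcag
The MAFF match begins 54 bases before the start and is a full TGACGTCA, which 1.85% of the 35116 RefSeq promoters hold. The first JDP2 match, TGATGCAA, begins 16 bases before the start and is held by 0.866% of promoters. The second, TGACGTC, is the response element without its last letter. It was added to the search after the sequences were seen, overlaps the full element wherever that occurs, and is held by 3.45% of promoters. That of MAFG is among them, and untreated MAFG was not called different under ATF2 gRNA. ATF3 had only a TGCTGA match, in 1 of its 2 promoters at hand (starts at 212565407 and 212615018), as did 17.3% of all promoters. Any other start of ATF3 was not searched, so these windows cannot say which sites its other promoters hold. A match describes the letters of these windows and says nothing of binding.

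The libraries held 8.41 to 14.6 M counts in experiment 1 (median 10.3) and 38.9 to 88.4 M in experiment 2 (median 53.5). Levels are compared within an experiment, as CPM, the output of edgeR's cpm function, which brings all libraries to 1 total size after TMM scaling. In untreated cells the targeted genes stood at 28.9% of WT for MAP3K12 in DLK KO, 32.2% for MAP3K13 in LZK KO, 21.6% and 29.9% for the pair in the double KO, 0.409% of Control gRNA for ATF2 and 3.24% for JUN. JUN itself stood at 23.7% under ATF2 gRNA. All 10 neuronal markers exceeded 1 CPM on average in every group, as did both glutamatergic markers, and no astrocyte or microglia marker exceeded it on average in any group. Of the 3 oligodendrocyte markers 1 to 2 per group exceeded 1 CPM on average (sums of 12.7 to 48.5 CPM in experiment 1 and 5.78 to 21.9 in experiment 2), and of the 3 fibroblast markers 0 to 1 (0.382 to 2.95 and 0.277 to 3.28). Summed neuronal markers were lower with vincristine in WT (12544 to 14349 CPM, against 15110 to 15982 untreated) and Control gRNA (10972 to 11554, against 15064 to 15474). They were also lower with it under ATF2 gRNA (11835 to 12448, against 12861 to 13085) and JUN gRNA (12012 to 12250, against 14435 to 15143). With the drug they were higher in DLK KO (16362 to 17269, against 14929 to 16348) and LZK KO (18001 to 18677, against 15744 to 17156). In the double KO they were 19109 to 19348 CPM untreated and 18474 to 19827 with the drug. Summed GABAergic markers (GAD1, GAD2, SLC32A1) were higher in the double KO (7.89 to 10.8 CPM), DLK KO (2.48 to 4.21) and LZK KO (2.77 to 5.32) than in WT (0.261 to 1.49). They were higher under ATF2 gRNA (22.2 to 30.9) than under Control gRNA (0.415 to 1.50), which JUN gRNA overlapped (0.906 to 1.86). Summed pluripotency markers were also higher in the double KO (52.9 to 62.2 CPM, mainly LIN28A and DPPA4), DLK KO (7.28 to 14.3) and LZK KO (13.2 to 18.8) than in WT (1.65 to 3.35). Against Control gRNA (6.80 to 13.5) they were higher under ATF2 gRNA (30.7 to 40.2) and JUN gRNA (14.2 to 20.1). The part of all these marker sums in the results below was not tested. A pair of libraries stood farthest from the rest of their group, by the SD of log2 CPM from that rest. WT vincristine 4 was at 0.552, against 0.284 to 0.498 for the other libraries of experiment 1. ATF2 gRNA vincristine 2 was at 1.13, against 0.376 to 0.986 for the other libraries of experiment 2. Results that rest on this pair of libraries are given with and without them.

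In control neurons every member that could be tested was called higher with vincristine. ATF3 had the largest log2 change in WT and in Control gRNA. In Control gRNA the interval of BATF3 (log2 2.67, interval 0.75 to 4.59) spanned the ATF3 value of 3.48, and differences between genes were not tested. A gene is called when its adjusted p (edgeR's quasi-likelihood test with Benjamini-Hochberg adjustment over all genes of the experiment) is under 0.05, and ± marks the SE of a log2 value or, after a level, the SD between libraries. In WT, 5 of the 5 members tested were called higher, where 15.7% of the 18235 genes tested were called higher and 30.2% were called at all. In Control gRNA 6 of 6 were called higher, where 17.1% of 20759 genes were called higher and 35.3% at all. The median log2 change of the members was 0.71 in WT and 0.92 in Control gRNA, against 0.00 and 0.03 for all genes tested. The WT count was 5 of 5 without WT vincristine 4, but 3 of 5 without WT vincristine 1 and 3 of 5 in a fit of the WT groups alone. The Control gRNA count was 5 to 6 without single libraries. With RNA from whole cultures, fewer cells of a type and less RNA per cell cannot be told apart, and since nothing in the labels says that libraries came from separate cultures, p-values measure a spread that may be technical. The knockout lines are all compared with the same WT libraries and both guides with the same Control gRNA libraries, so these comparisons are not independent of one another.

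ATF3 was the member with the widest range. In WT its level was 15.1, 14.9, 13.9 and 12.5 CPM in the 4 untreated libraries and 218, 223, 213 and 234 CPM with vincristine. These groups lie far apart, with a 15.7-fold rise (log2 3.98 ± 0.11, adjusted p = 4e-25). In Control gRNA the untreated libraries ran from 20.6 to 23.6 CPM (median 22.1) and the vincristine libraries from 230 to 260 (median 251), an 11.2-fold rise (log2 3.48 ± 0.07, adjusted p = 6.61e-33). Divided by exon length, ATF3 held 3.49 CPM per kb in untreated WT, below MAFG at 7.98, and 55.0 with vincristine, above MAFG at 10.6 and JDP2 at 3.92.

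ATF3 was lower than in WT in both single knockout lines, before and after the drug. DLK KO held 4.97, 5.98, 4.60 and 3.66 CPM untreated and 26.1, 19.9, 17.1 and 22.8 with vincristine. LZK KO held 7.73, 6.86, 6.94 and 8.36 CPM untreated and 32.0, 44.8, 42.6 and 39.2 with vincristine. ATF3 thus rose in both lines, by log2 2.15 ± 0.13 in DLK KO (adjusted p = 1.72e-14) and 2.41 ± 0.12 in LZK KO (adjusted p = 9.68e-17), from a lower start. The rise was smaller than in WT, with log2 differences of -1.82 ± 0.18 for DLK KO (adjusted p = 1.51e-09) and -1.57 ± 0.17 for LZK KO (adjusted p = 1.76e-08). With vincristine the level in DLK KO was 9.67% of that in WT, and in LZK KO 17.8%. Untreated, ATF3 was lower than in WT by log2 -1.55 ± 0.14 in DLK KO (adjusted p = 1.6e-11) and -0.92 ± 0.13 in LZK KO (adjusted p = 6.59e-07).

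In the double KO, ATF3 stood near the bottom of the counts and no rise was detected. Its libraries held 1.87, 1.44, 1.26 and 1.96 CPM untreated and 2.54, 1.96, 1.73 and 2.25 with vincristine, and the groups overlapped. The log2 change was 0.37 ± 0.23, with a 95% interval from -0.08 to 0.83 (adjusted p = 0.802). This differed from the change seen in WT cells (log2 difference -3.60 ± 0.27, adjusted p = 1.96e-12). It also differed from that of DLK KO (-1.78 ± 0.28, adjusted p = 0.000145) and of LZK KO (-2.03 ± 0.27, adjusted p = 1.31e-05). The vincristine level of the double KO was 0.955% of that of WT. Ordered by level, the groups of experiment 1 ran from WT vincristine (222 ± 8.91 CPM) through LZK KO vincristine (39.6 ± 5.57), DLK KO vincristine (21.5 ± 3.85), WT untreated (14.1 ± 1.18), LZK KO untreated (7.47 ± 0.711) and DLK KO untreated (4.80 ± 0.962) to the double KO with vincristine (2.12 ± 0.350) and untreated (1.63 ± 0.335). Every neighbouring pair in that order was apart except the double KO pair.

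**Figure D1:**
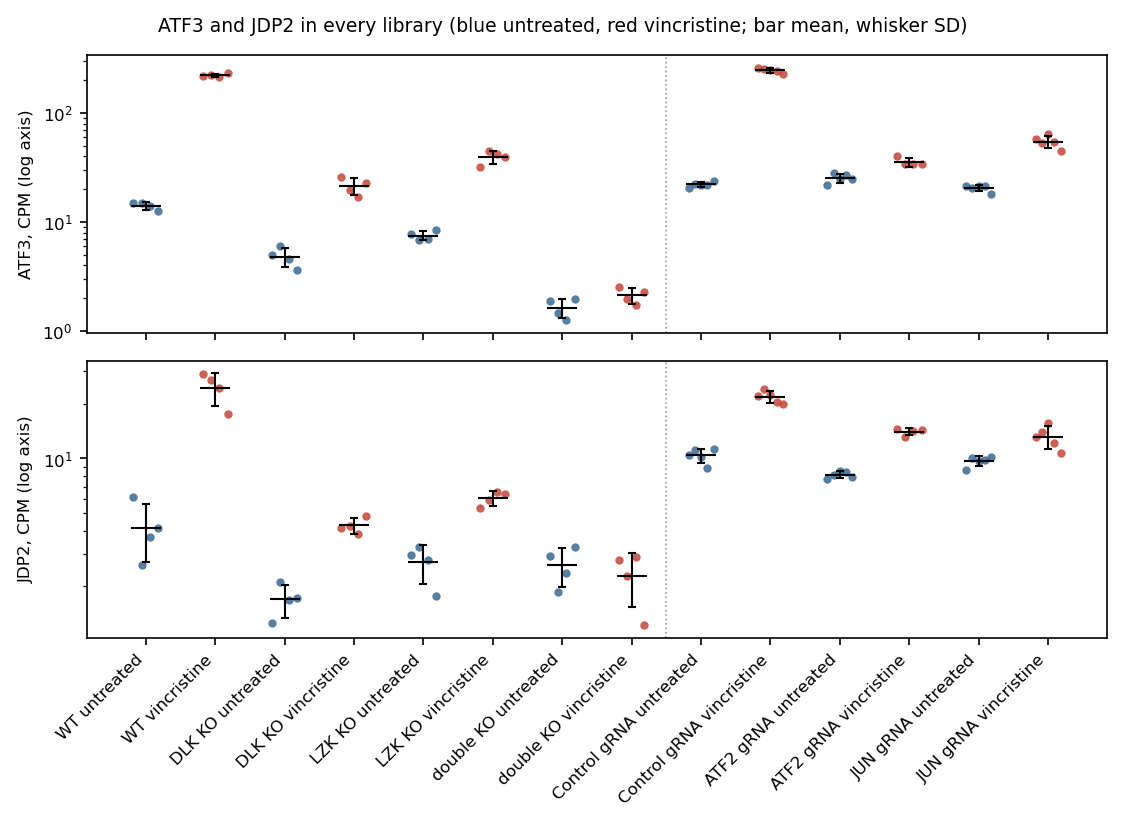
ATF3 (top) and JDP2 (bottom) in each of the 61 libraries as CPM on a log axis, by line, with untreated libraries in blue and vincristine libraries in red. Bars are group means, whiskers the SD, and the dotted line separates the experiments. ATF3 stands at 222 CPM in WT vincristine and 248 CPM in Control gRNA vincristine on average, and at 2.12 CPM in the double KO with vincristine.

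The rise of ATF3 with vincristine was smaller under both guides than under Control gRNA, and its untreated mean lay within 92.8% to 115% of that of Control gRNA. Under ATF2 gRNA the untreated libraries held 22.0 to 28.1 CPM (median 24.9) and the vincristine libraries 40.1, 34.0, 33.8 and 33.9. The highest of these is ATF2 gRNA vincristine 2. Under JUN gRNA the libraries held 18.0 to 21.6 CPM untreated (median 21.3) and 44.9 to 64.2 with vincristine (median 54.3). Treated and untreated libraries were apart under both guides, and the rise was called in each, at log2 0.48 ± 0.07 under ATF2 gRNA (0.42 without vincristine library 2) and 1.42 ± 0.07 under JUN gRNA. The loss against Control gRNA was -3.00 ± 0.10 for ATF2 gRNA (adjusted p = 1.68e-24) and -2.07 ± 0.10 for JUN gRNA (adjusted p = 6.49e-20). The guides differed from each other as well, with a smaller rise under ATF2 gRNA than under JUN gRNA (log2 difference -0.94 ± 0.10, adjusted p = 1.13e-08). With vincristine the ATF3 level was 14.3% of Control gRNA for ATF2 gRNA and 22.1% for JUN gRNA.

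Untreated, ATF3 was slightly higher under ATF2 gRNA than under Control gRNA (log2 0.20 ± 0.07, adjusted p = 0.0211), but the libraries overlapped and the call was lost when Control gRNA untreated 1, ATF2 gRNA untreated 2 or ATF2 gRNA untreated 4 was left out (adjusted p = 0.0636 to 0.0824). No difference was called under JUN gRNA (log2 -0.11, interval -0.24 to 0.03). In the kinase knockouts untreated ATF3 lay at 34.0%, 53.0% and 11.6% of WT for DLK KO, LZK KO and the double KO.

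JDP2 was the only other member whose rise in WT was called smaller in each of the single kinase knockouts. WT held 6.12, 2.61, 3.72 and 4.17 CPM untreated and 29.0, 26.8, 24.4 and 17.6 with vincristine, the lowest being WT vincristine 4. The groups are apart, and the rise was log2 2.56 ± 0.18 (adjusted p = 7.31e-14), or 2.69 without WT vincristine 4. DLK KO went from 1.24, 2.09, 1.68 and 1.72 CPM to 4.17, 4.27, 3.85 and 4.86, and LZK KO from 2.96, 3.25, 2.78 and 1.77 to 5.32, 5.94, 6.55 and 6.41. Treated libraries of each knockout lay above its untreated ones and below every treated WT library. The rises were log2 1.34 ± 0.26 in DLK KO (adjusted p = 0.000774) and 1.17 ± 0.23 in LZK KO (adjusted p = 0.00155), smaller than in WT by differences of -1.22 ± 0.33 (adjusted p = 0.00805) and -1.40 ± 0.31 (adjusted p = 0.00179).

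JDP2 in the double KO held 2.91, 1.84, 2.35 and 3.26 CPM untreated and 2.76, 2.25, 2.86 and 1.22 with vincristine, which overlap. The log2 change was -0.17 ± 0.26 (interval -0.68 to 0.33), and its difference from WT was -2.74 ± 0.32 (adjusted p = 3.84e-08). Against DLK KO the difference was -1.52 ± 0.37 (adjusted p = 0.0266), a call lost without DLK KO untreated 1 or 3, DLK KO vincristine 2 or 4, double KO untreated 1 or 4, or double KO vincristine 2 or 4 (adjusted p up to 0.091). Against LZK KO it was -1.34 ± 0.35 and not called (adjusted p = 0.0524), but called in 5 alternatives and without double KO untreated 2 or vincristine 3. Among the differences between lines, ATF3 and JDP2 were the 2 members called in DLK KO minus WT, where 9.41% of genes were called lower and 19.4% in all. They were again the 2 called in LZK KO minus WT (6.53% lower, 12.4% in all), double KO minus WT (10.2% lower, 19.4% in all) and double KO minus DLK KO (1.01% lower, 1.14% in all), and ATF3 was the 1 called in double KO minus LZK KO (0.746% lower, 0.916% in all).

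Under both guides the log2 loss of JDP2 against Control gRNA was smaller than that of ATF3, but so was its rise in Control gRNA. The difference between the genes was not tested. Control gRNA went from 8.92 to 11.3 CPM untreated to 20.0 to 24.1 with vincristine (log2 1.07 ± 0.09, adjusted p = 7.93e-14). ATF2 gRNA went from 7.67 to 8.49 CPM to 13.1 to 14.5 (log2 0.78 ± 0.10, adjusted p = 1.12e-07), and JUN gRNA from 8.65 to 10.1 to 10.7 to 15.7 (log2 0.45 ± 0.09, adjusted p = 0.000186). In all of these the treated libraries were apart from the untreated ones. The rise was smaller than in Control gRNA under JUN gRNA (log2 difference -0.62 ± 0.13, adjusted p = 0.000242), while under ATF2 gRNA the difference of -0.28 ± 0.13 was not called (interval -0.54 to -0.03, adjusted p = 0.125). The guides themselves did not differ in a called way (0.34 ± 0.13, adjusted p = 0.189). Untreated JDP2 was lower under ATF2 gRNA (log2 -0.35 ± 0.09, adjusted p = 0.00146, libraries apart) and in DLK KO (-1.29 ± 0.26, adjusted p = 0.000113, apart), LZK KO (-0.62 ± 0.24, adjusted p = 0.045, overlapping) and the double KO (-0.69 ± 0.23, adjusted p = 0.0152, overlapping). The LZK KO call was lost in limma voom, in a fit of only those groups and without WT untreated 1 or 4 or LZK KO untreated 1, 3 or 4 (adjusted p up to 0.237), and the double KO call without WT untreated 1 or double KO untreated 2. Of 4 tested genes within 250 kb of the JDP2 start, 3 were called lower in the untreated double KO (median log2 -0.83; 22.1% of all genes lower). The count was 2 in LZK KO (-0.38; 16.8%) and 1 in DLK KO (-0.23; 17.9%), where 1 was called higher. The part of these neighbours in the JDP2 values was not tested. An antisense transcript, AF111167.2, overlaps only the first bases of JDP2: it ends at 75427741, where JDP2 starts at 75427716 and has 6235 bases of exon. It stood at 0.385 CPM in untreated WT and 2.81 with vincristine, and with the strand setting of the counting not stated, reads over that overlap could belong to either.

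**Figure D2:**
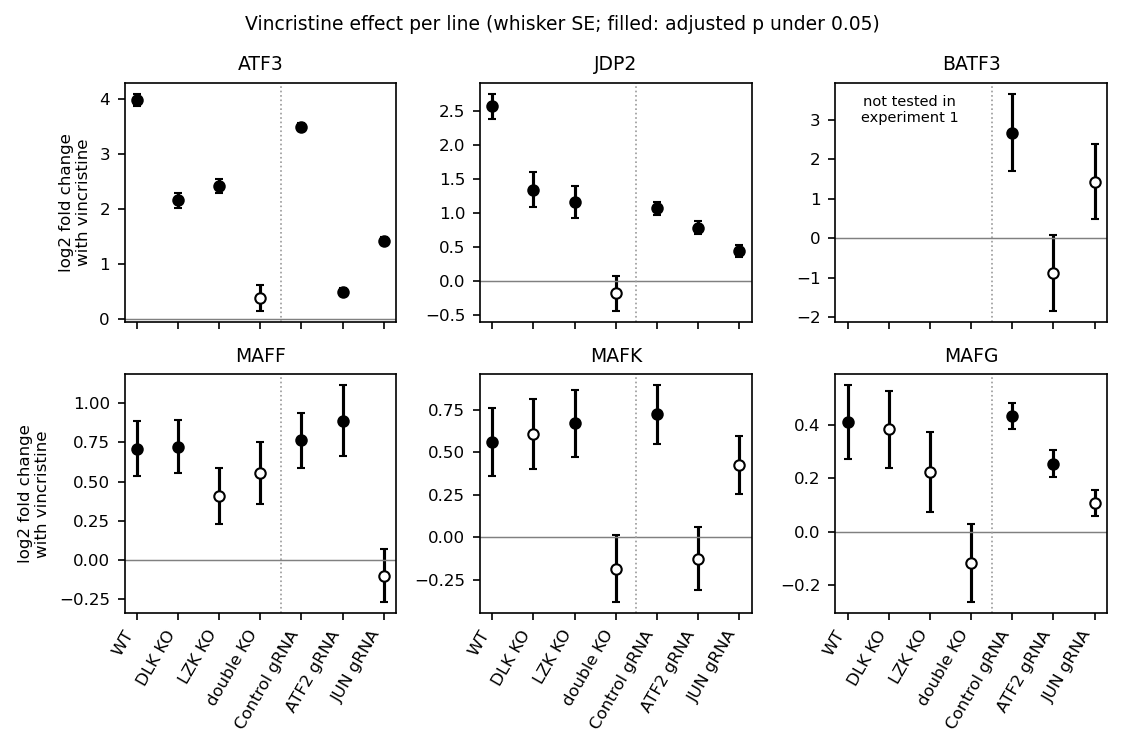
Log2 fold change with vincristine for each of the 6 genes in the 7 lines, with whiskers of 1 SE. Filled points are called (adjusted p under 0.05) and open points are not, and BATF3 was not tested in experiment 1. ATF3 falls from 3.98 in WT to 0.37 in the double KO, and from 3.48 in Control gRNA to 0.48 under ATF2 gRNA.

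The log2 changes of the 3 small MAF genes with vincristine were 0.41 to 0.71 in WT and 0.44 to 0.76 in Control gRNA, below those of ATF3 and JDP2, and differences between genes were not tested. MAFF, a small MAF that is itself stress inducible, held 4.30, 3.08, 4.35 and 3.68 CPM in untreated WT and 7.09, 7.91, 5.91 and 4.31 with vincristine. The lowest treated library, WT vincristine 4, lies within the untreated range. MAFF rose in WT (log2 0.71 ± 0.18, adjusted p = 0.00185; 0.84 without that library) and in DLK KO (0.72 ± 0.17, adjusted p = 0.00735), where 3.73 to 4.95 CPM became 7.00 to 7.62. In LZK KO (0.41 ± 0.18, adjusted p = 0.24) and the double KO (0.55 ± 0.20, adjusted p = 0.784) it was not called. No difference between kinase lines was called for MAFF. The interval of the difference between DLK KO and WT was -0.47 to 0.50, which leaves room for a change in either direction.

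MAFF was the 1 member called in opposite directions under the 2 guides in untreated cells. Its untreated libraries held 2.87, 2.49, 2.23, 3.03 and 3.04 CPM under Control gRNA, 0.295, 0.362, 0.659, 0.767 and 0.443 under ATF2 gRNA, and 5.38, 5.04, 5.93, 4.73 and 6.75 under JUN gRNA. All 3 sets are apart, with ATF2 gRNA at 18.5% of Control gRNA (log2 -2.40 ± 0.20, adjusted p = 6.62e-14) and JUN gRNA at 204% (log2 1.03 ± 0.17, adjusted p = 2.77e-05). With vincristine the Control gRNA libraries held 3.90, 4.50, 4.55, 4.69 and 5.61 CPM, ATF2 gRNA 0.804, 1.13, 0.900 and 0.997, and JUN gRNA 4.94, 4.79, 5.58, 4.56 and 6.05. MAFF therefore rose under Control gRNA (log2 0.76 ± 0.18, adjusted p = 0.00041) and, from its low start, under ATF2 gRNA (0.89 ± 0.23, adjusted p = 0.00919), but not under JUN gRNA (-0.10 ± 0.17, adjusted p = 0.805). The ATF2 gRNA call was lost in limma voom (adjusted p = 0.26) and in a fit of those groups alone (adjusted p = 0.404).

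The MAFF response under JUN gRNA was smaller than under Control gRNA (log2 difference -0.87 ± 0.24, adjusted p = 0.00965). That under ATF2 gRNA was not called different (0.13 ± 0.28, interval -0.42 to 0.68). Between the guides it was 0.99 ± 0.28 larger under ATF2 gRNA (adjusted p = 0.0407), a call lost in 16 of 26 alternatives, among them the fit with no filter on low counts (adjusted p = 0.0717) and that with the replicate block (adjusted p = 0.0515). Untreated MAFF was also lower in the double KO than in WT, with 1.98, 2.65, 2.85 and 2.89 CPM, all below the WT libraries (log2 -0.57 ± 0.20, adjusted p = 0.0177; lost without WT untreated 1 or 3 or double KO untreated 1, adjusted p up to 0.0723). Of 10 tested genes within 250 kb of the MAFF start, 5 were called lower there and 1 higher (median log2 -0.41), where 22.1% of all genes were called lower. The part of this chromosome stretch in the MAFF difference was not tested. PLA2G6, on the opposite strand, overlaps MAFF, and in untreated cells it stood at 29.5 CPM under Control gRNA, 25.3 under ATF2 gRNA and 25.1 under JUN gRNA. Without the strand setting, MAFF reads that are in truth from PLA2G6 cannot be told apart.

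**Figure D3:**
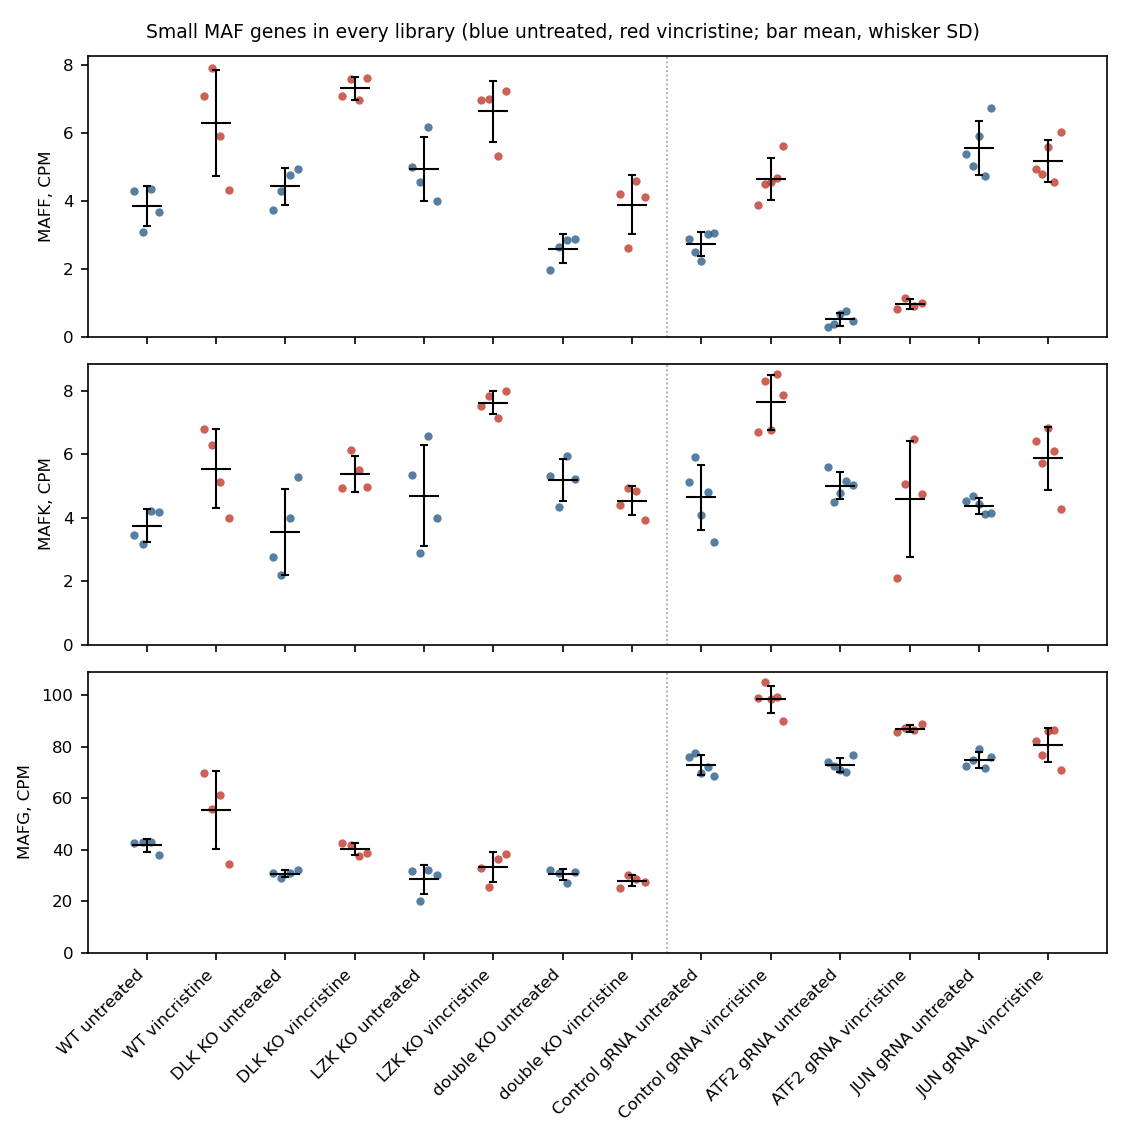
MAFF, MAFK and MAFG in every library as CPM on linear axes from 0, by line, with untreated libraries in blue and vincristine libraries in red; bars are means and whiskers the SD. MAFF stands at 0.505 CPM under untreated ATF2 gRNA, 2.73 under Control gRNA and 5.57 under JUN gRNA, while untreated MAFG lies between 72.8 and 74.8 CPM on average under all 3 guides.

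MAFK is a small MAF that is expressed in most tissues. WT held 3.44, 3.17, 4.21 and 4.17 CPM untreated and 6.79, 6.29, 5.13 and 3.99 with vincristine, again with WT vincristine 4 lowest and inside the untreated range. Its rise was called in WT (log2 0.56 ± 0.20, adjusted p = 0.0322; 0.68 without WT vincristine 4), in LZK KO (0.67 ± 0.20, adjusted p = 0.0458) and in Control gRNA (0.72 ± 0.17, adjusted p = 0.000646). The WT call was lost on leaving out any of 4 libraries (WT untreated 1 or 2, WT vincristine 1 or 2) or fitting those groups alone (adjusted p = 0.0633 to 0.112), and the LZK KO call in 9 of 15 alternatives (the replicate block, those groups alone, and without LZK KO untreated 1, 2 or 4 or any 1 of its vincristine libraries, adjusted p up to 0.217). In DLK KO the size was similar, at 0.61 ± 0.21, but not called (adjusted p = 0.0673; 0.0167 without DLK KO untreated 4). No kinase line was called different from WT, and the difference for the double KO was -0.75 ± 0.28 (adjusted p = 0.0583), or -0.87 and called without WT vincristine 4 (adjusted p = 0.0158).

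Under ATF2 gRNA no rise of MAFK was seen. The libraries held 5.60, 4.50, 4.78, 5.14 and 5.05 CPM untreated and 2.09, 5.05, 6.48 and 4.74 with vincristine, the 2.09 being ATF2 gRNA vincristine 2. In Control gRNA 3.24 to 5.93 CPM became 6.70 to 8.54, apart from the untreated libraries. The change differed between them (log2 difference -0.85 ± 0.25, adjusted p = 0.0116), and without ATF2 gRNA vincristine 2 the difference was -0.62 (adjusted p = 0.0314). The change under ATF2 gRNA itself was -0.13 ± 0.19 with that library and 0.12 without it, and neither was called. JUN gRNA did not differ from Control gRNA in a called way (-0.30 ± 0.24, adjusted p = 0.509). TMEM184A overlaps the end of MAFK on the opposite strand. Its mean went from 5.67 CPM untreated to 8.02 with vincristine in Control gRNA (log2 0.50 ± 0.14, called) and from 3.11 to 2.78 under ATF2 gRNA (-0.16 ± 0.16, not called). It was also called higher in WT (from 0.766 CPM, log2 1.19 ± 0.34), LZK KO (1.57 ± 0.42) and JUN gRNA (0.61 ± 0.14). Without the strand setting, reads over the overlap cannot be told apart, and the part of TMEM184A in the MAFK values was not tested.

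MAFG was the member with the highest untreated level per kb in every line, and its rise was the smallest of the members tested in WT and in Control gRNA. In WT it went from 42.7, 43.0, 43.0 and 37.9 CPM to 69.8, 55.9, 61.1 and 34.3, where WT vincristine 4 fell below every untreated library and the other treated ones lay above them. The change was log2 0.41 ± 0.14 (adjusted p = 0.0238). It was 0.58 without WT vincristine 4, and not called in a fit of those groups alone or without WT untreated 4, WT vincristine 1 or WT vincristine 3 (adjusted p = 0.0689 to 0.133). Under Control gRNA 68.7 to 77.4 CPM became 89.9 to 105 (log2 0.44 ± 0.05, adjusted p = 4.03e-10), and under ATF2 gRNA 70.3 to 76.9 became 85.6 to 89.0 (0.26 ± 0.05, adjusted p = 0.000941). These treated libraries were apart from the untreated ones, while under JUN gRNA they overlapped (0.11 ± 0.05, adjusted p = 0.149). The rise was smaller than in Control gRNA under JUN gRNA (log2 difference -0.33 ± 0.07, adjusted p = 0.000405), and under ATF2 gRNA the difference of -0.18 ± 0.07 was not called (adjusted p = 0.0672; called without Control gRNA untreated 1 or 2 or vincristine 5).

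Untreated MAFG was lower in all 3 knockout lines, with every library below the 4 WT libraries. The log2 differences were -0.44 ± 0.14 in DLK KO (adjusted p = 0.0168; 0.0502 without DLK KO untreated 2), -0.55 ± 0.15 in LZK KO (adjusted p = 0.0037) and -0.46 ± 0.14 in the double KO (adjusted p = 0.00929). Of 28 tested genes within 250 kb of the MAFG start, 10 were called lower and 2 higher in untreated DLK KO (median log2 -0.22; 17.9% of all genes lower). In LZK KO 5 were lower and 0 higher (-0.11; 16.8%), and in the double KO 5 lower and 1 higher (-0.09; 22.1%). The part of these neighbours in the MAFG values was not tested. The guides left MAFG at 100% and 103% of Control gRNA, with no call. With vincristine the double KO held 25.1 to 30.1 CPM, below the 34.3 to 69.8 of WT. The difference in its rise from WT was -0.53 ± 0.20 and not called (adjusted p = 0.0634), and without WT vincristine 4 it was -0.70 and called (adjusted p = 0.000486). SIRT7 overlaps MAFG on the same strand, stood at 11.2 to 20.9 CPM in the 14 groups and was called in no vincristine effect.

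BATF3, best known from dendritic cells and other immune cells, was near the limit of detection. In experiment 1 it failed the filter on low counts, with 0 to 8 counts per library. In experiment 2 it held 0, 0, 15, 0 and 1 counts in untreated Control gRNA and 37, 19, 28, 8 and 17 with vincristine, and replicate 3 carries nearly all of the untreated counts. The rise was called (log2 2.67 ± 0.98, adjusted p = 0.0288). It was 5.57 without Control gRNA untreated 3, and the call was lost on leaving out any of 6 other libraries (Control gRNA untreated 1, 2, 4 or 5, vincristine 1 or 3; adjusted p = 0.0508 to 0.0705). Untreated ATF2 gRNA held 23, 3, 28, 20 and 33 counts, more than Control gRNA (log2 2.92 ± 0.99, adjusted p = 0.0149; 5.82 without Control gRNA untreated 3), and 11, 12, 0 and 18 with vincristine. JUN gRNA held 10, 2, 4, 6 and 2 counts untreated and 9, 8, 24, 23 and 0 with vincristine, with no call. No difference in the BATF3 response between guides was called (ATF2 gRNA minus Control gRNA -3.54 ± 1.38, adjusted p = 0.062), but that one was called in DESeq2 (adjusted p = 0.0227), in limma voom (0.0199), and without Control gRNA untreated 3 (-6.44) or ATF2 gRNA untreated 2.

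**Figure D4:**
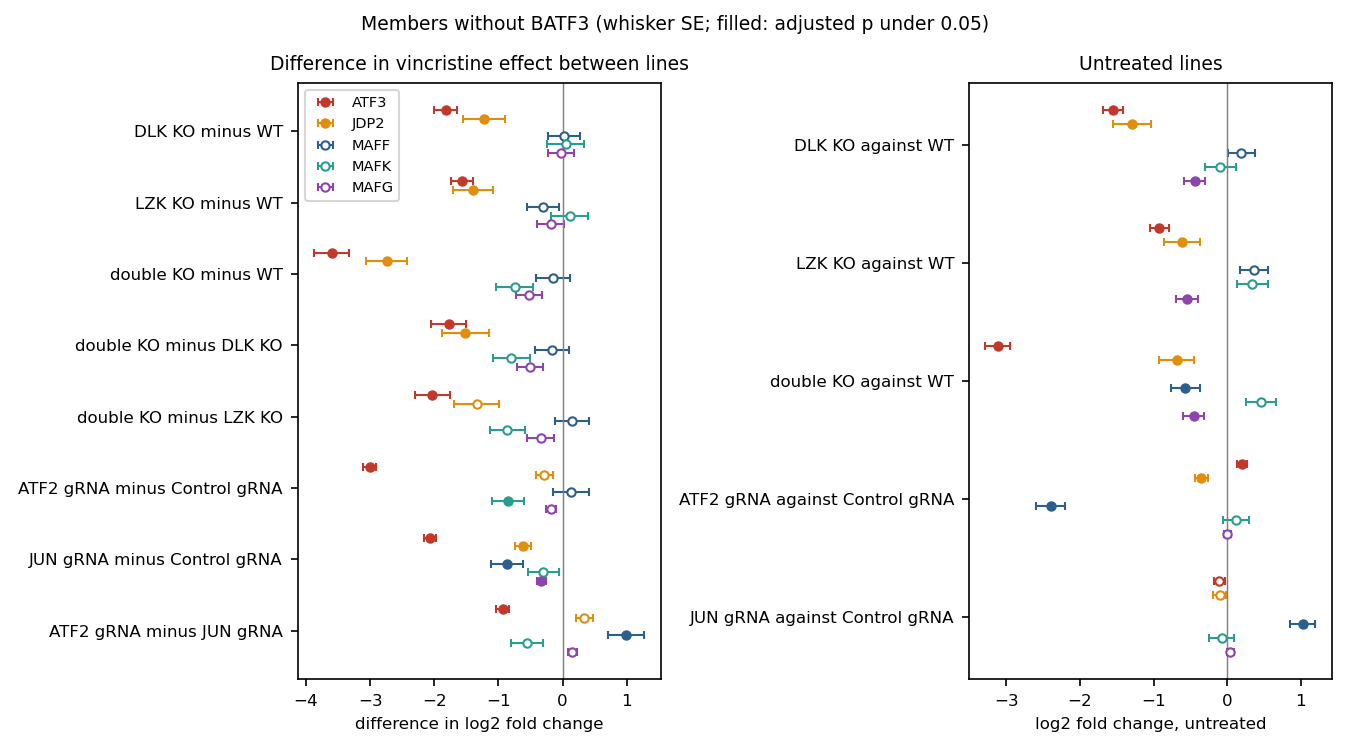
Left, difference in the vincristine effect between lines for ATF3, JDP2, MAFF, MAFK and MAFG (log2, whiskers of 1 SE); right, untreated lines against their control. Filled points are called. ATF3 has the lowest difference in each of the 8 comparisons on the left, from -0.94 between the guides to -3.60 between double KO and WT, and on the right MAFF stands at -2.40 under ATF2 gRNA and 1.03 under JUN gRNA.

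Counted over the members, vincristine raised 3 of 5 in DLK KO (ATF3, JDP2, MAFF), where 4.24% of genes were called higher and 6.53% in all, and 3 of 5 in LZK KO (ATF3, JDP2, MAFK; 2.27% higher, 3.88% in all). In the double KO edgeR called 0 of 5, where it called 0.0658% of all genes (12 genes, 1096 at an unadjusted p under 0.05). MAFF was the 1 member with an unadjusted p under 0.05 there, and DESeq2, limma voom and the other alternatives also called 0. Under ATF2 gRNA 4 of 6 rose (ATF3, JDP2, MAFF, MAFG; 1.88% of genes higher, 6.1% in all), and under JUN gRNA 2 of 6 (ATF3, JDP2; 7.58% higher, 15.9% in all). Among the differences between guides, 2 members were called lower in ATF2 gRNA minus Control gRNA (10.4% of genes lower, 20.6% in all), 4 in JUN gRNA minus Control gRNA (7.06% lower, 15.8% in all), and 1 lower and 1 higher in ATF2 gRNA minus JUN gRNA (1.92% and 0.91%, 2.83% in all). For untreated cells 3 were called lower in DLK KO (17.9% of genes lower, 34.5% in all), 3 in LZK KO (16.8% and 33.9%) and 4 in the double KO (22.1% and 45.7%). Under ATF2 gRNA 2 were called higher (19.7%) and 2 lower (20.2%, 39.9% in all), and under JUN gRNA 1 was called higher (5.78%, 11.2% in all).

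The pairing partners of these factors are given from lists of family members, over the genes of each list that were tested. Of 12 listed JUN, FOS, BATF and ATF2 family genes, 8 were tested. Of 8 tested JUN, FOS, BATF and ATF2 family partners, 6 were called higher and 1 (ATF7) lower in WT, with a median log2 change of 1.32 against 0.00 for all genes, of which 15.7% were called higher. The count higher was 3 in DLK KO (median 0.62; 4.24% of all genes higher), 3 in LZK KO (0.32; 2.27%) and 0 in the double KO (0.08), where 0.0658% of genes were called at all. It was 5 in Control gRNA (median 1.19; 17.1% of all genes higher), 1 under ATF2 gRNA (0.20; 1.88%) and 6 under JUN gRNA (0.97; 7.58%). The list holds the genes that the guides target. The 6 under JUN gRNA include JUN itself, which stood at 3.24% of Control gRNA in untreated JUN gRNA cells. JUN, the main partner of ATF3 and JDP2, rose by log2 1.86 in WT, 2.04 for DLK KO, 1.27 for LZK KO and 1.42 under Control gRNA, and its change was 0.22 in the double KO and -0.03 under ATF2 gRNA, neither called. CREB5, a relative of ATF2, rose by 2.58 in WT, 2.03 for DLK KO, 2.06 for LZK KO, 2.44 under Control gRNA and 1.20 under JUN gRNA. FOS, the neighbour of JDP2, rose by 2.91 in WT and 1.46 in both Control gRNA and JUN gRNA, and its change in DLK KO was 0.30 and not called (adjusted p = 0.252). Nor was any tested gene within 250 kb of JDP2, FOS among them, called higher in LZK KO (highest log2 0.52) or the double KO (0.22).

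Of the ATF4 and C/EBP family partners of ATF3, 6 of 6 tested were called higher in WT (median 1.78), 0 of 6 in DLK KO (0.33), 4 of 6 in LZK KO (0.40) and 0 of 6 in the double KO (0.02), beside 15.7%, 4.24% and 2.27% of all genes higher in the first 3 and 0.0658% called at all in the double KO. In experiment 2 the count higher was 4 of 7 in each of Control gRNA (median 0.98, with ATF4 itself lower), ATF2 gRNA (0.34) and JUN gRNA (0.35), beside 17.1%, 1.88% and 7.58% of all genes. In DLK KO the change of DDIT3 (the stress factor CHOP) was 0.52 (adjusted p = 0.0702) and that of CEBPB 0.77 (adjusted p = 0.0591). DDIT3 rose by 3.14 in WT and 2.89 in Control gRNA. In untreated ATF2 gRNA against Control gRNA, 5 of these 7 genes were called higher and 1 lower (median 0.84), beside 19.7% and 20.2% of all genes. DDIT3 (log2 2.53), ATF5 (2.78) and CEBPB (1.43) were higher there, and ATF3 differed by 0.20.

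Of the CNC and BACH partners of the small MAF proteins, 2 of 5 were called higher and 1 lower in WT, where 15.7% of all genes were called higher and 30.2% at all. In Control gRNA 4 of 5 were higher and 1 lower, where the shares were 17.1% and 35.3%. NFE2L2 (NRF2), the activator of antioxidant genes, rose by 0.94 in WT and 0.38 in Control gRNA, and the repressor BACH2 by 0.64 and 0.76. Of the antioxidant genes that such pairs control, 1 of 10 was called higher and 3 lower in WT (median -0.05), and 5 of 11 higher and 3 lower in Control gRNA (median 0.10), against those same shares of all genes. SLC7A11, a cystine transporter that ATF4 controls as well, rose by 5.11 in WT, whereas TXNRD1 fell by 0.55 there.

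**Figure D5:**
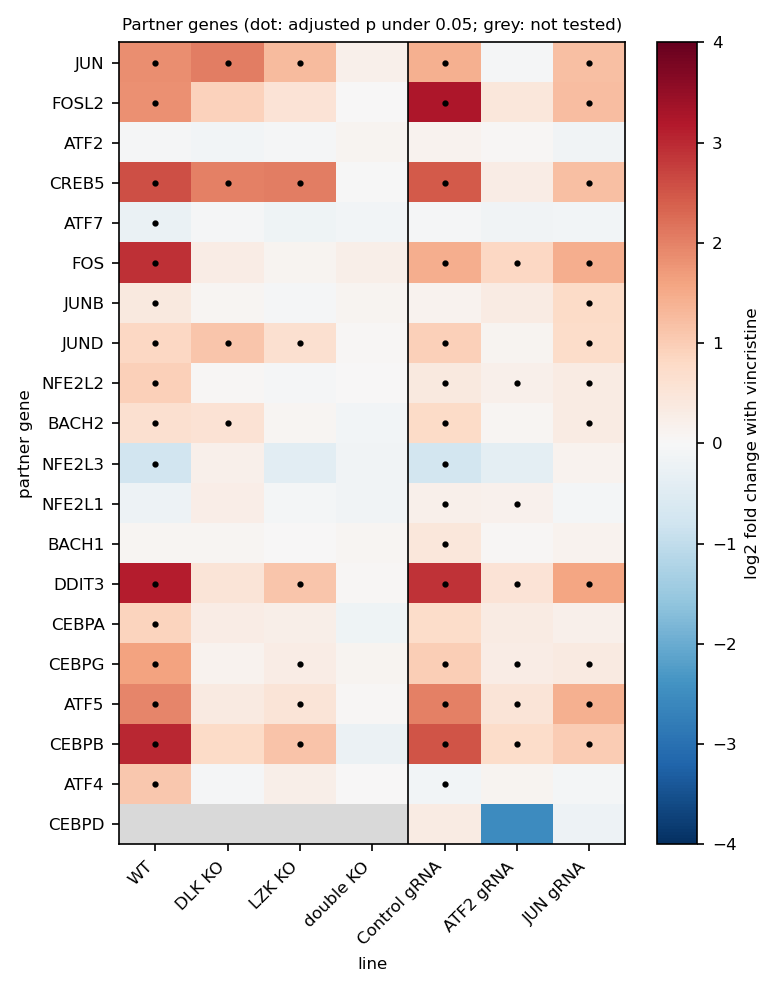
Log2 fold change with vincristine of 20 partner genes (rows) in the 7 lines (columns), in a colour scale from lower to higher, where a dot marks an adjusted p under 0.05 and grey a gene that was not tested. JUN and CREB5 are called higher in WT, DLK KO, LZK KO, Control gRNA and JUN gRNA and not in the double KO or under ATF2 gRNA.

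The genes whose group means followed a member most closely were found among 12338 genes, ranked by the smaller of their Pearson correlations over the 8 groups of experiment 1 and the 6 groups of experiment 2. The groups share depth and scaling, and the values are a description. For ATF3 they were TMEM198B (0.974 and 0.990), PLA2G4C, CD151, KLF11 and HRK (0.990 and 0.964). HRK, a BH3-only cell death gene, rose by log2 2.98 in WT, 2.25 for DLK KO, 2.75 for LZK KO, 2.18 under Control gRNA, 0.35 under ATF2 gRNA and 1.24 under JUN gRNA, and its 0.26 in the double KO was not called. For JDP2 they were the amino acid transporters SLC1A4 (0.985 and 0.956), SLC7A11 (0.956 and 0.959) and SLC6A9 (0.951 and 0.952). For MAFF they were C2CD4C, RAB30 and TMEM184B (0.874 and 0.881), the last of which starts 72.3 kb from MAFF. The nearest for MAFK were ZNF669, AMOT and HECA, and for MAFG NEBL, HHLA3 and PHYKPL. NES, an intermediate filament gene of neural progenitors, made up most of the summed progenitor markers. Their sum was 733 to 774 CPM in untreated WT and 920 to 1948 with vincristine, 113 to 124 in the double KO with or without the drug, and 1309 to 1399 and 2428 to 2524 in Control gRNA against 736 to 813 and 695 to 803 under ATF2 gRNA. It went from 205 to 268 CPM untreated to 484 to 599 with vincristine in DLK KO, and from 489 to 650 to 951 to 1148 in LZK KO. Under JUN gRNA 956 to 1078 CPM became 1654 to 1762. The part of these markers in the member values was not tested.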

How the data were processed

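RNA was measured in 61 libraries in 14 groups. The authors deposited raw counts per gene in a separate table for each experiment; per the submitters' processing notes, cutadapt 3.4, STAR and featureCounts (Subread 2.0.1) were used with GRCh38. The strand setting and the use of marked duplicates are not given in the sources used here. Of 58440 identifiers, 58320 were matched to a symbol through GENCODE 29, and 0 count columns were left unused. None of 104 pairs of replicates were copies.

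Each experiment was fitted on its own with edgeR 4.0.16 (R 4.3.3): filterByExpr by group, TMM factors and a robust quasi-likelihood fit with 1 mean per group over all its libraries, 2-sided, with Benjamini-Hochberg adjustment over every gene tested. This left 18235 and 20759 genes, with 5 and 6 of the members. SE was taken as the size of the log2 change over the square root of F. Alternatives were leaving out each library, fitting only the groups compared, DESeq2 1.42.0, voom of limma 3.58.1 with quality weights per sample, RLE factors, a block for the replicate number, no filter on low counts, and a minimum mean level of 1 CPM. The fits were tested on simulated data. The members and lists were chosen with earlier results of these data known, and 1 of the lists is not reported here. The named genes are the members, the genes most like each in pattern (mean log2 CPM of at least 1, prior count 2), genes of the lists and genes within 250 kb. BATF3 had 0 to 37 counts per library.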

Additional observations from a re-analysis of the deposited data

Results flagged for a closer look

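In 6 of 84 groups of libraries a single member value lay far from the others of its group, where chance gives about 1 in 20. These were ATF3 in ATF2 gRNA vincristine 2 (40.1 CPM, above the other 3 libraries), ATF3 in JUN gRNA untreated 5 (18.0 CPM, lowest), BATF3 in Control gRNA untreated 3 (0.222 CPM, highest), MAFF in LZK KO vincristine 3 (5.32 CPM, lowest), MAFG in WT untreated 4 (37.9 CPM, lowest) and MAFG in LZK KO untreated 2 (19.8 CPM, lowest).

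The response to vincristine differed between lines, by the test of the difference itself, in 17 cases. For ATF3 the log2 differences were -1.82 (DLK KO minus WT), -1.57 (LZK KO minus WT), -3.60 (double KO minus WT), -1.78 (double KO minus DLK KO), -2.03 (double KO minus LZK KO), -3.00 (ATF2 gRNA minus Control gRNA), -2.07 (JUN gRNA minus Control gRNA) and -0.94 (ATF2 gRNA minus JUN gRNA). For JDP2 they were -1.22, -1.40, -2.74 and -1.52 in the first 4 of these, and -0.62 for JUN gRNA minus Control gRNA. For MAFF they were -0.87 (JUN gRNA minus Control gRNA) and 0.99 (ATF2 gRNA minus JUN gRNA), for MAFG -0.33 (JUN gRNA minus Control gRNA) and for MAFK -0.85 (ATF2 gRNA minus Control gRNA).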

How the results depend on the processing

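Of 108 member values, 55 were called, and 43 of these kept their call under every alternative run (2062 values under alternatives, over the 108 member values). Left out singly, JUN gRNA vincristine 5 added calls of MAFK and MAFG in JUN gRNA, LZK KO untreated 3 added MAFK in double KO minus LZK KO, and double KO untreated 2 added MAFK in double KO minus WT and in the untreated double KO. The MAFF call in ATF2 gRNA minus JUN gRNA was lost without ATF2 gRNA untreated 1, 2 or 5 or vincristine 3, 4 or 5, or JUN gRNA untreated 1, 3 or 5 or vincristine 1, 2 or 4. No called value turned direction, and 15 of the 53 uncalled values were called in at least 1 alternative. The number of members called in WT was 3 when only the compared groups were fitted and 3 to 5 without single libraries. In DLK KO it was 5 with limma voom and with only the groups compared, and in JUN gRNA 4 with limma voom and 2 to 4 without single libraries. For double KO minus WT it was 4 with no filter and with limma voom and 2 to 4 without single libraries. For double KO minus DLK KO it was 1 with DESeq2, which gave 3 of the 5 members no adjusted p, 4 with limma voom and with only the groups compared, and 1 to 2 without single libraries. For double KO minus LZK KO it was 2 with no filter, the filter at 1 CPM, DESeq2, limma voom and only the groups compared, and 1 to 2 without single libraries. For ATF2 gRNA minus Control gRNA it was 5 with limma voom, and for ATF2 gRNA minus JUN gRNA 1 with no filter, the replicate block, limma voom and only the groups compared, and 1 to 2 without single libraries. For untreated double KO it was 2 to 4 without single libraries. The cause was not tested.

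Values that turned direction were all uncalled. With limma voom these were MAFF (-0.0851) and MAFK (-0.0212) in DLK KO minus WT, MAFK in LZK KO minus WT (-0.0556) and MAFK in untreated JUN gRNA (0.0771). Without single libraries the ranges were -0.32 to 0.0221 (JDP2, double KO), -0.33 to 0.12 (MAFK, ATF2 gRNA), -0.12 to 0.14, -0.12 to 0.28 and -0.19 to 0.0937 (MAFF, MAFK and MAFG, DLK KO minus WT), -0.0512 to 0.34 (MAFK, LZK KO minus WT), -0.29 to 0.0156 (MAFF, double KO minus WT), -0.26 to 0.00543 (MAFF, double KO minus DLK KO), -0.00537 to 0.34 (MAFF, ATF2 gRNA minus Control gRNA), -0.31 to 0.0862 (MAFK, untreated DLK KO), -0.0181 to 0.0257 (MAFG, untreated ATF2 gRNA) and -0.18 to 0.0246 (MAFK, untreated JUN gRNA).

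When only the compared groups were fitted, the count of all genes called went from 5498 to 3529 in WT, 1190 to 3207 in DLK KO, 707 to 271 in LZK KO, 12 to 1028 in the double KO, 1267 to 768 in ATF2 gRNA, 2262 to 1082 for LZK KO minus WT and 207 to 3208 for double KO minus DLK KO. With limma voom it was 3583 in DLK KO, 67 in the double KO, 3533 for LZK KO minus WT, 5867 against 3543 for double KO minus WT, 2757 for double KO minus DLK KO and 347 against 167 for double KO minus LZK KO. Double KO minus DLK KO gave 536 with no filter and 430 with DESeq2, and 114 to 135 without DLK KO vincristine 1, 2 or 4, double KO untreated 2 or double KO vincristine 4. Leaving out DLK KO untreated 1 or 2, or vincristine 1, 2 or 4, gave 598 to 767 in DLK KO, and LZK KO untreated 2 gave 452 in LZK KO.

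Replicate numbers did not pair the libraries: deviations of same-numbered libraries correlated from -0.176 to 0.110 in experiment 1 and from -0.0424 to 0.0465 in experiment 2, and 3 of 16 and 5 of 14 correlated best with their own number. The replicate block changed 2 of 108 calls, those of MAFK in LZK KO (adjusted p = 0.0526) and of MAFF in ATF2 gRNA minus JUN gRNA (adjusted p = 0.0515). BATF3 had at most 37 counts in a library, so its values rest on few counts.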
